A study of Mus musculus with 6 samples.

Results

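The regions described here are 1729 H3K9ac peaks that the deposited annotation places in an exon, a 5' or 3' untranslated region (UTR) or at the end of a gene (TTS, the transcription termination site), 9.66% of the 17901 peaks in the table. They were taken by the text of that annotation alone. A further condition, that the detailed annotation names no CpG island or repeat, removed none of them. It therefore does not show that they lie outside CpG islands, and overlap with islands was not measured. The peaks fall into 542 in exon 1, 245 in later exons, 571 in 5' UTRs, 95 in 3' UTRs and 276 at TTSs. The last pair, 371 peaks, are called gene ends below.

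The mark was profiled by CUT&RUN, in which a nuclease directed by an antibody releases the DNA beneath a chromatin protein, in bulk endothelial cells isolated from mouse lung. There were 3 libraries of Cre-positive CSE-KO cells and 3 of Cre-negative WT cells. CSE, cystathionine gamma-lyase, is the enzyme that releases cysteine and hydrogen sulfide and is encoded by Cth. The sources used here give neither the Cre driver, the design of the allele, nor the age and strain of the mice, and do not say whether each library came from its own animal. The p-values below therefore measure only the spread among the 6 libraries, and that spread may be technical.

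Acetylation of lysine 9 of histone H3 is written by acetyltransferases such as GCN5 (Kat2a) and PCAF, and it marks the nucleosomes around active transcription starts and enhancers. Exon 1 and most 5' UTR sequence lie just downstream of a start, where this mark is known to be strong. The 3' UTR and the termination site close the gene and, in a long gene, lie far from its own start. A gene end can still lie beside the start of a neighbouring gene.

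The counts over the peaks summed to 1173016, 679938 and 685131 in CSE-KO replicates 1 to 3, and to 676056, 313610 and 610922 in WT replicates 1 to 3. Each CSE-KO library was thus deeper than each WT library, and WT replicate 2 was the shallowest. No peak was assigned to Cth, so the targeted gene does not check the labels. All 15 endothelial marker genes had a peak somewhere in the table, with summed levels of 2644 to 3051 CPM (reads scaled to an equal total per library) in CSE-KO and 2853 to 3042 in WT. Of 15 epithelial markers 5 had peaks (Epcam, Cdh1, Krt8, Krt18 and Scgb1a1; 292 to 334 CPM in CSE-KO, 316 to 349 in WT), while Sftpc and Nkx2-1 had none. A single gene of 15 had a peak for leukocytes (Csf1r, 21.3 to 23.5 CPM in CSE-KO and 16.3 to 38.3 in WT) and for fibroblasts and mural cells (Col1a1, 22.1 to 51.2 CPM in CSE-KO and 31.9 to 45.9 in WT). The ranges of the groups overlapped for each marker list. In bulk cells, fewer cells with the mark and less of it per cell cannot be told apart. The names of the normalized columns in the table carry one numeric prefix for CSE-KO and another for WT, and a batch that this might stand for cannot be told apart from genotype.

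Short stretches of promoter sequence show what lies beside some of these peaks. They are 30 bases each, on GRCm38.p6 from RefSeq, written 5' to 3' on the strand of the gene, and they were picked to show the peak that passed the test (Prcc), peaks among the highest of their class (Irgm1 and Vim), members of the gene lists below (Brd2 and Jun), and a gene end that covers the start of a neighbour (Flot2). Capitals mark a motif found by its letters. All except those of Vim, Brd2 and Jun are the bases directly before the transcription start.
Prcc (chr3:87885563-87885592, minus strand, none of the motifs searched): agtgactcggcggccattaggtgtgtgtag
Irgm1 (chr11:48871421-48871450, minus strand, 2 overlapping ISRE-like repeats): GAAATAGAAACCGAAActgattctcaattc
Vim (chr2:13574267-13574296, plus strand, TATA box 32 bases before the start): tcctaacagtgtTATAAAagcagcgccctt
Brd2 (chr17:34121826-34121855, minus strand, GC box 96 bases before the start): atgggatgttttGGGCGGgcgaggggaggg
Jun (chr4:95052270-95052299, minus strand, CCAAT box 65 bases before the start): gaacgacgcaagCCAATgggaaagcctcgg
Flot2 (chr11:78037901-78037930, plus strand, GC box and ETS site): CCGCCCtccgccgctacaCTTCCGGcgggg

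The classes differed in where they lay relative to transcription starts. A peak covered the nearest start, meaning that its centre lay no farther away than the peak's own reach to either side, in 402 of 542 exon 1 peaks (74.2%) and 462 of 571 5' UTR peaks (80.9%). The share was 29.0% in later exons, 37.3% at TTSs and 3.16% in 3' UTRs. The median distance of the peak's centre from a start was 285 bp in exon 1, 215 bp in 5' UTRs, 877 bp in later exons, 682.5 bp at TTSs and 10294 bp in 3' UTRs. No member was centred closer than 101 bp, since nearer peaks carry the promoter annotation. Median widths were 1079 bp in exon 1, 1056 bp in 5' UTRs, 913 bp in later exons, 800 bp at TTSs and 601 bp in 3' UTRs.

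Gene-end peaks were often nearest to the start of a different gene. This held for 189 of 276 TTS peaks (68.5%) and 47 of 95 3' UTR peaks (49.5%), against 18 of the exon 1 peaks (3.32%) and 9 of the 5' UTR peaks (1.58%). Of the TTS peaks, 88 covered the start of that other gene. The peak at the end of Dhrs13, a short-chain dehydrogenase gene, is one of them: its centre lies 134 bp from the start of Flot2, the gene of the membrane protein flotillin 2, whose upstream bases are printed above. Small genes were also common, since 26.8% of TTS peaks belonged to a gene shorter than 5 kb, against 14.9% in exon 1 and 5.95% in 5' UTRs. The groups overlap: 38 of these 74 TTS peaks were nearest to the start of another gene. By RefSeq biotype, 232 TTS peaks ended protein-coding genes, 22 miRNA genes, 15 lncRNA genes, 3 snoRNA genes, 3 transcribed pseudogenes and 1 an snRNA gene. For a gene shorter than its peak, start and end fall under the same signal.

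**Figure D1:**
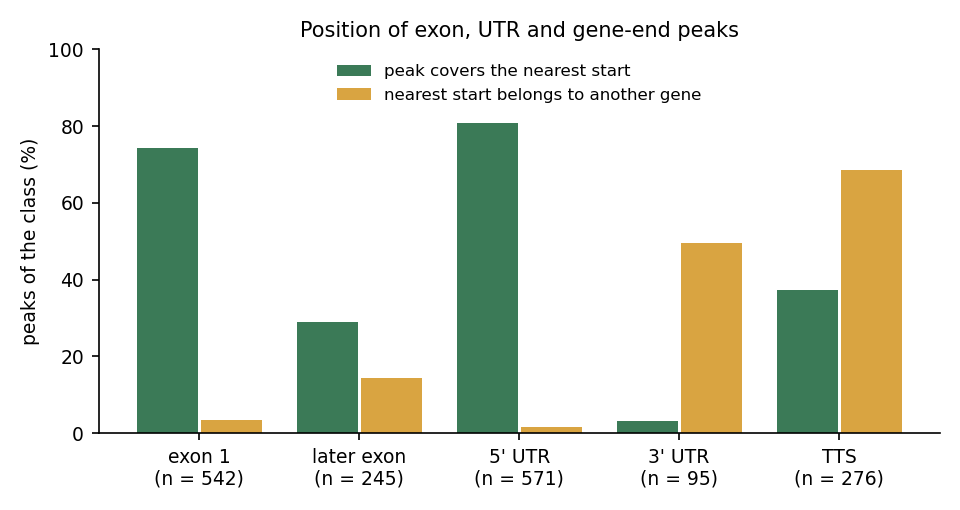
For each annotation class on the x axis, bars give the percentage of peaks that cover the nearest transcription start (green) and of peaks whose nearest start belongs to another gene (yellow). Exon 1 (74.2%) and 5' UTR peaks (80.9%) mostly cover a start, while 68.5% of TTS peaks are nearest to another gene.

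Exon number split the later exons. The 147 peaks in exon 2 had a median distance of 533 bp to a start and a median level of 64.0 CPM per kb of peak width. The 98 peaks in exon 3 or beyond had a median distance of 11167.5 bp and levels of 50.9 to 55.3 CPM per kb over the libraries, against 61.5 to 65.2 in exon 2. Exon 2 peaks were thus close to a start and the peaks of later exons mostly far from one. Among all members, 71 lay in transcripts of a single exon, where exon 1 is also the last, such as Clec14a.

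Levels per length differed little between exon 1 and most other classes. Over the tested peaks, the median was 56.1 CPM per kb in exon 1, 59.8 in later exons, 57.5 in 5' UTRs, 57.2 at TTSs and 49.9 in 3' UTRs. Across the 6 libraries the class medians ranged over 56.1 to 59.3 CPM per kb in exon 1, 57.6 to 61.6 in later exons and 56.9 to 59.5 at TTSs, which overlap. The 3' UTR medians, 47.8 to 55.3, lay below those of exon 1 in range, and overlapped those of intergenic peaks (48.8 to 50.1). Promoter peaks of the table were at 60.0 to 62.8. The deposited rows have a lower limit of level: no row had a mean under 29.7 CPM per kb, and no member one under 29.8, so peaks weaker than this are not part of any class median.

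Whether a peak covered a start went with its level. Gene-end peaks that covered a start had a median of 61.6 CPM per kb and the others 52.4. Over the libraries these medians were 59.3 to 65.9 and 52.4 to 55.3, higher with a start in 6 of 6 libraries. In later exons they were 66.8 with a start and 53.7 without, higher in 6 of 6 libraries (65.0 to 69.1 and 52.8 to 56.5). Exon 1 peaks were also higher with a start in 6 of 6 libraries (56.9 to 59.4 and 51.0 to 58.8), as were 5' UTR peaks (57.7 to 60.6 and 52.1 to 57.7), though the ranges over libraries met or overlapped there. Peaks covering a start are also wider (median 1114 bp and 662 bp at gene ends), and the part of width in these differences was not tested.

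**Figure D2:**
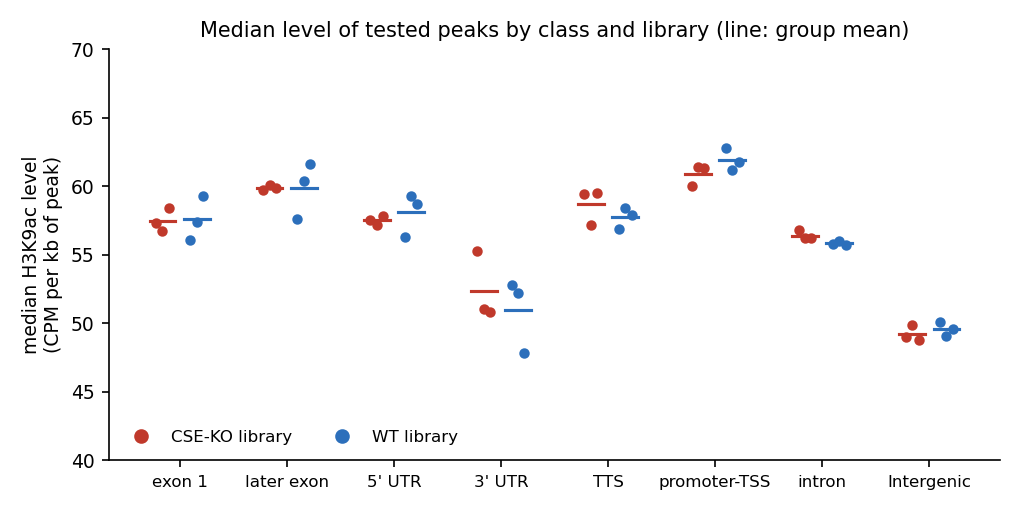
Points are the median H3K9ac level (CPM per kb of peak width, y axis from 40 to 70) of the tested peaks of each class in each CSE-KO (red) and WT (blue) library, and lines are group means. The 3' UTR medians, 47.8 to 55.3, sit below the exon 1 medians, 56.1 to 59.3, and the groups overlap in every class drawn except introns, where CSE-KO medians are 56.2 to 56.8 and WT medians 55.7 to 56.0.

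Promoter windows whose start lies inside a member peak were rich in CG pairs compared with all RefSeq windows. Windows under the table's other peaks were not searched, so these values are not shown to be particular to members. Of the RefSeq windows of 300 bases, 250 before and 50 after a start, 1050 had their start in a member peak, and they held a median of 23.0 CG pairs and 61.7% G or C. All 32817 windows held 7.0 and 52.7%. The GC box GGGCGG, searched on both strands like the other motifs, was in 69.7% of the member windows and 35.6% of all. The ETS site CCGGAAG was in 21.0% and 8.86%, the E-box CACGTG in 115 of 1050 windows and 7.15% of all, CCAAT in 399 of 1050 and 37.4%, the TATA box TATAAA in 6.10% and 13.6%, and the ISRE-like repeat (GAAA, 2 bases of any kind, GAAA) in 2.57% and 3.43%. The GC box stood in 70.9% of 405 exon 1 windows, 71.0% of 469 5' UTR windows, 71.0% of 93 TTS windows and 53.8% of 80 later exon windows. A match is a run of letters and not a measured binding site, and the G and C content of the windows differed along with it.

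In CSE-KO against WT cells, 1 of the tested members changed. The test (edgeR's quasi-likelihood test with Benjamini-Hochberg adjustment over all 16134 tested peaks, threshold 0.05) could be run on 1646 of the 1729 members. The other 83 had too few counts. The count filter required about 10 counts, scaled to the median depth, in at least 3 libraries. A peak low in every WT library was thus tested only if high in every CSE-KO library, and the reverse. The test called 14 peaks in all, 0.0868% of those tested. Among members this was the exon 1 peak of Prcc. At an unadjusted p under 0.05 there were 113 members (6.87%), against 7.08% of all tested peaks. Of these, 43 were higher (3.01% of all peaks were) and 70 lower (4.07% of all peaks were) in CSE-KO. The groups did not overlap at 220 members (13.4%, against 13.0% of all peaks), with CSE-KO higher at 87 (6.09% of all peaks) and lower at 133 (6.90% of all peaks). The DESeq2 Wald test called the same single member.

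Class medians of the change lay near 0 in exon 1, later exons and gene ends. The median log2 fold change was -0.01 in exon 1, 0.03 in later exons and 0.03 at gene ends, against -0.00 over all tested peaks. It was -0.04 in 5' UTRs, where 315 of 552 tested peaks lay below 0. Scaling between libraries sets the median of all peaks near 0, so these values are relative to it. The fold change was within 0.5 of 0 at 86.6% of the members and 83.5% of all peaks, and the median SE of a member was 0.282. At an unadjusted p under 0.05 were 42 exon 1 peaks (7.85%), 15 later exon peaks (6.76%), 31 5' UTR peaks (5.62%), 4 3' UTR peaks (5.06%) and 21 TTS peaks (8.14%), all near the 7.08% of the whole table.

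Members held a like share of each library's counts, 11.5% ± 0.0915 in CSE-KO and 11.5% ± 0.0987 in WT (SD, n = 3 each). The 5' UTR share was 4.02%, 4.00% and 4.04% in CSE-KO and 4.05%, 4.12% and 4.17% in WT. Here the groups did not overlap, though the nearest libraries were close. For exon 1, later exons, 3' UTRs and TTSs the groups overlapped.

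The Prcc peak rose in CSE-KO cells. Prcc encodes a proline-rich nuclear protein known from its fusion with TFE3 in papillary renal carcinoma. Its exon 1 peak (chr3:87884473-87885929 on GRCm38, 1457 bp wide, centred 361 bp into the gene and covering the start) had 232, 203 and 207 CPM in CSE-KO and 104, 102 and 97.4 in WT. All 3 CSE-KO libraries lay far above all WT libraries, and each group was tight. Group means were 214 ± 15.5 CPM in CSE-KO and 101 ± 3.59 CPM in WT (SD over 3 libraries each). The log2 fold change was 1.08 with an SE of 0.17, and the peak passed with edgeR at an adjusted p = 2.22e-04. The 300-base promoter window of Prcc held none of the 6 motifs searched, 48.7% G or C and 11 CG pairs, against the median of 61.7% and 23.0 for windows starting in a member peak.

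A second peak in the same gene, in exon 6 of 7 (chr3:87860009-87860411), is named in the files for Sh2d2a, a T cell adaptor gene, whose start is nearest at 13455 bp. It had 24.2, 29.9 and 23.7 CPM in CSE-KO and 10.6, 6.60 and 8.40 in WT. Every CSE-KO library was above every WT library at this low level. The peak met the count filter through CSE-KO alone, so this separation was partly set in advance. The log2 fold change was 1.52 (SE 0.50), and it did not pass (edgeR adjusted p = 0.474).

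Peaks next to Prcc were looked at after these values were seen. Within 150 kb on either side 11 peaks were tested, and at 6 of them every CSE-KO library was above every WT library, which held for 6.09% of all tested peaks. A run of 7 consecutive tested peaks over 111 kb had log2 fold changes above 0 with an unadjusted p under 0.05, which held for 3.01% of all tested peaks. The region was chosen for the Prcc exon 1 peak, which these counts include. The ends of the run were set at its outermost peaks with CSE-KO higher without overlap. Prcc exon 6 and the Nes promoter met the count filter through CSE-KO alone. The shares over all tested peaks are therefore not a like comparison for these counts. Without CSE-KO replicate 1, CSE-KO replicate 3 or WT replicate 3, 5 of the 7 peaks in the run had an unadjusted p under 0.05. Besides both Prcc peaks, it held 2 intron peaks of Hdgf, a growth factor gene (0.75 and 1.06), an intron peak of Mrpl24, a mitochondrial ribosome gene (0.52), and the promoters of Rrnad1 (0.58) and of Nes, the gene of the intermediate filament nestin (1.28). Only the Prcc exon 1 peak passed. The wider Hdgf peak had 323, 207 and 319 CPM in CSE-KO and 148, 254 and 134 in WT, with an edgeR adjusted p of 0.0878. There CSE-KO replicate 2 lay below WT replicate 2, so the groups overlapped. Outward of the run, Pear1 was at 0.15, a Nes intron peak at 0.82, Bcan at 0.29 and Gpatch4 at 0.50, each with overlapping groups. Without input DNA, which was not analysed here, more of the mark and more DNA over this stretch cannot be told apart.

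**Figure D3:**
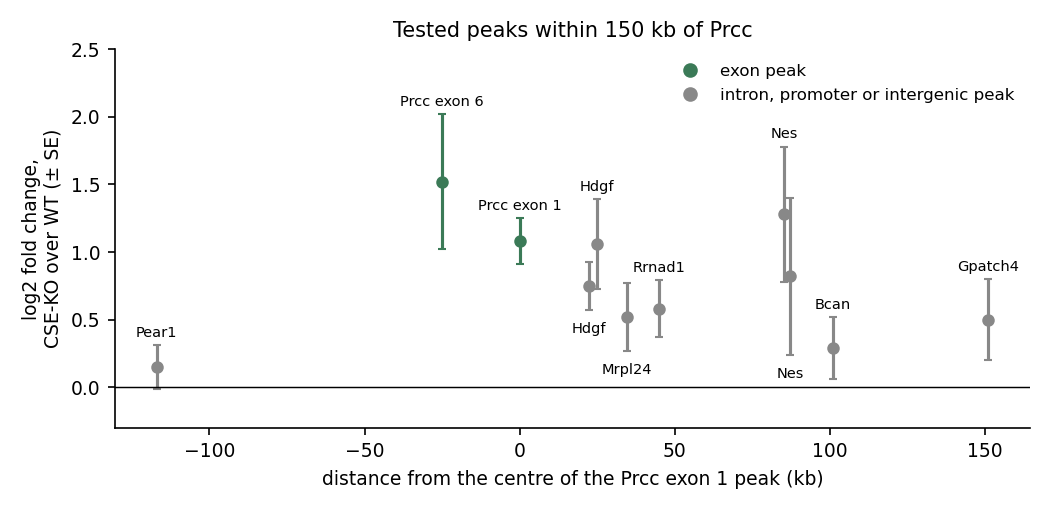
Log2 fold change, CSE-KO over WT (y axis; bars ± SE from edgeR), of the 11 tested peaks around Prcc by distance from the exon 1 peak (x axis, kb), with exon peaks in green and other peaks in grey. All 11 points lie above 0, between 0.15 at Pear1 and 1.52 at Prcc exon 6, and the exon 1 peak at 1.08 is the one that passed.

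The exon 1 peaks of highest level did not pass. Ppp1r15b, which encodes a phosphatase subunit that keeps translation going by acting on eIF2-alpha, had 384, 294 and 380 CPM in CSE-KO and 360, 307 and 331 in WT, and the groups overlapped. Phf2, the gene of a histone demethylase, had 320, 234 and 345 CPM in CSE-KO and 327, 323 and 344 in WT. CSE-KO replicate 2 was low here and the other libraries were alike. Vim, the gene of the intermediate filament vimentin, had 304, 296 and 302 CPM in CSE-KO and 409, 373 and 341 in WT. Every CSE-KO library of Vim was below every WT library, at -0.32 on the log2 scale (SE 0.13, edgeR adjusted p = 0.637). Its TATA box is printed above.

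Among exon 1 peaks with the smallest p, Mmrn1 and Mindy2 followed Prcc. Mmrn1, which encodes multimerin 1 and marks lymphatic endothelium, had 68.3, 59.7 and 57.7 CPM in CSE-KO and 19.7, 46.2 and 30.2 in WT. The groups did not overlap, although WT replicate 2 came near. The log2 fold change was 1.06 (SE 0.32, edgeR adjusted p = 0.374), and an intron peak of the gene, 3027 bp from the start, had 0.93 (SE 0.30). Mindy2, a deubiquitinase gene, had 22.5, 11.9 and 20.7 CPM in CSE-KO and 37.8, 59.4 and 43.7 in WT. All CSE-KO libraries were lower, at -1.27 (SE 0.37, edgeR adjusted p = 0.374).

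In later exons the 3 peaks of highest level lay in exon 2. Robo4, an endothelial guidance receptor, had 287, 245 and 340 CPM in CSE-KO and 238, 343 and 252 in WT. Wwtr1, the gene of the Hippo effector TAZ, had 307, 263 and 291 CPM in CSE-KO and 254, 304 and 294 in WT. Ppp1r15a, the stress-induced counterpart of Ppp1r15b, had 244, 284 and 231 CPM in CSE-KO and 335, 244 and 242 in WT. At all 3 genes the groups overlapped.

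Nr2f2, Sh3bp5 and the Prcc exon 6 peak had the smallest p of the later exons. Nr2f2 encodes COUP-TFII, a nuclear receptor that specifies venous identity, and its exon 2 peak had 199, 152 and 146 CPM in CSE-KO and 271, 254 and 210 in WT. CSE-KO was lower without overlap, at -0.54 on the log2 scale (SE 0.16, edgeR adjusted p = 0.374). Intergenic peaks nearest to Nr2f2 were mixed, at -0.16, 0.27 and -0.71. Sh3bp5, whose product binds SH3 domains and the kinase BTK, had 48.4, 74.6 and 45.8 CPM in CSE-KO and 28.8, 13.2 and 28.6 in WT in exon 3. CSE-KO was higher without overlap, at 1.14 (SE 0.34, edgeR adjusted p = 0.374). This peak lies 29918 bp from the nearest start, and the promoter peak of the gene was at 0.48 and 4 intron peaks at -0.29 to 0.37.

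The 5' UTR peaks included the member with the highest level of all. Irgm1, an interferon-induced GTPase gene of immune defence, had 468, 428 and 438 CPM in CSE-KO and 431, 492 and 507 in WT, with overlapping groups. The ISRE-like repeats before its start, printed above, have the letters of an interferon response element. Nr1d1, the gene of the circadian repressor REV-ERB alpha, had 329, 310 and 303 CPM in CSE-KO and 363, 369 and 344 in WT. It was lower in every CSE-KO library, by little (-0.19, SE 0.13, edgeR adjusted p = 0.799). Pcbp1, which encodes an RNA-binding protein, had 327, 351 and 325 CPM in CSE-KO and 310, 409 and 306 in WT, and the groups overlapped.

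Of the 5' UTR peaks with the smallest p, Serpinh1, the collagen chaperone gene, had 215, 273 and 312 CPM in CSE-KO and 329, 439 and 326 in WT. Arhgef2, an activator of RhoA, had 60.5, 46.3 and 54.7 CPM in CSE-KO and 28.8, 29.7 and 31.9 in WT. Gm5141 had 20.7, 31.3 and 42.9 CPM in CSE-KO and 12.1, 3.30 and 11.8 in WT. None of these had overlapping groups. Gm5141 met the count filter through CSE-KO alone, so its separation was partly set in advance. The log2 fold changes were -0.44 (SE 0.14), 0.84 (SE 0.31) and 1.61 (SE 0.49), and none passed (edgeR adjusted p of 0.470, 0.596 and 0.414).

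At gene ends, the 3' UTR peaks of highest level belonged to short genes. Rhob, a small GTPase gene with a single exon, had 243, 209 and 226 CPM in CSE-KO and 232, 251 and 244 in WT, and its peak also covers the start. Tmsb10, which encodes an actin-sequestering thymosin, had 100, 131 and 104 CPM in CSE-KO and 142, 135 and 148 in WT, where CSE-KO was lower without overlap (-0.36, SE 0.19, edgeR adjusted p = 0.721). Arl4c, the gene of a small ARF-like GTPase, had 109, 103 and 111 CPM in CSE-KO and 164, 201 and 160 in WT. All CSE-KO libraries of Arl4c were alike and well below all WT libraries. Its log2 fold change was -0.67 (SE 0.18, edgeR adjusted p = 0.201), lost to the adjustment in each alternative too (0.181 to 0.662). An intergenic peak nearest to Arl4c, 62404 bp from the start, was at -0.01.

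Other 3' UTR peaks with a small p were those of Tor4a and Sox4. Tor4a, a torsin family gene, had 35.4, 28.4 and 41.4 CPM in CSE-KO and 13.6, 9.90 and 23.5 in WT, higher without overlap at 1.08 (SE 0.41, edgeR adjusted p = 0.596). Sox4, a transcription factor gene with a single exon, had 40.6, 35.8 and 32.5 CPM in CSE-KO and 80.2, 39.6 and 52.1 in WT, with overlap (-0.70, SE 0.30). Its exon 1 peak had 142, 169 and 177 CPM in CSE-KO and 164, 152 and 171 in WT, a log2 fold change of -0.02. The 3' UTR and exon 1 of Sox4 thus gave different values, and the difference was not tested.

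The highest TTS peak, at the end of Naa38, a gene of 881 bp for a subunit of an N-terminal acetyltransferase, had 295, 360 and 309 CPM in CSE-KO and 265, 340 and 291 in WT, with overlap. The Flot2 peak at the end of Dhrs13 had 50.1, 43.3 and 44.4 CPM in CSE-KO and 68.1, 132 and 63.8 in WT. CSE-KO was lower without overlap (-0.84, SE 0.28, edgeR adjusted p = 0.470), and WT replicate 2 stood far above the other WT libraries. Tmcc2, which encodes a coiled-coil membrane protein, had 10.4, 19.4 and 13.3 CPM in CSE-KO and 40.9, 39.6 and 23.5 in WT at its end. The value was -1.29 on the log2 scale (SE 0.44, edgeR adjusted p = 0.499), while the promoter peak of Tmcc2 was at 0.04 and its intron peak at 0.16. At the end of Cdc25a, a cell cycle phosphatase gene, in a peak nearest to Mir7089, there were 17.3, 32.8 and 16.3 CPM in CSE-KO and 7.57, 0 and 6.72 in WT. The groups did not overlap at this low level (1.91, SE 0.61, edgeR adjusted p = 0.446). The peak met the count filter through CSE-KO alone, so this separation was partly set in advance.

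**Figure D4:**
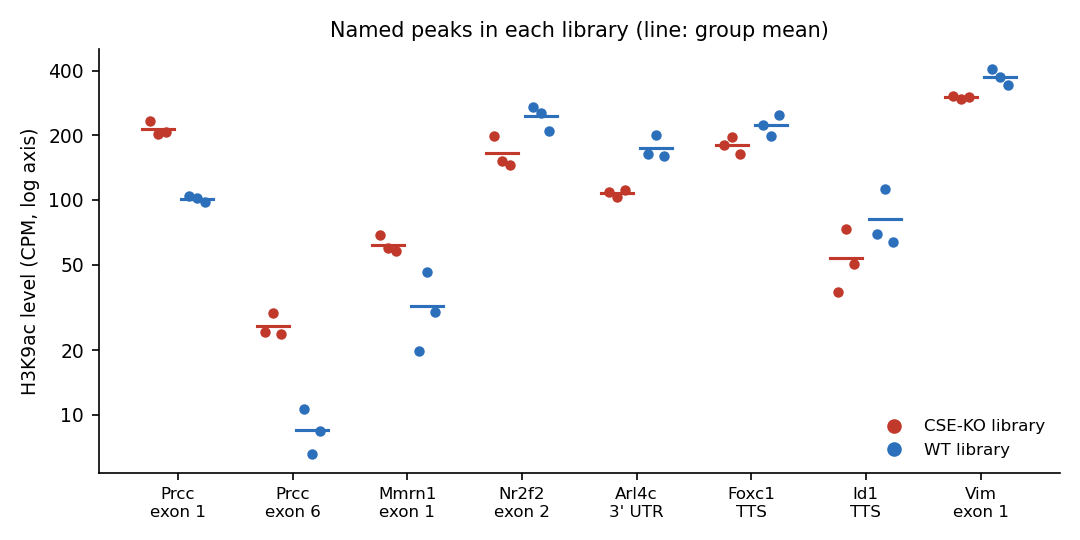
Level (CPM, log axis) of 8 named peaks in each CSE-KO (red) and WT (blue) library, with lines at the group means. Prcc exon 1 (232, 203 and 207 CPM in CSE-KO, 104, 102 and 97.4 in WT) is the one peak that passed, and the groups overlap at Id1 alone.

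Genes with a pair of member peaks numbered 38, and no gene had more. Those of highest summed level were Phf2, Rars and Acin1. Phf2 had its exon 1 peak and a peak at the end of its neighbour Fam120a, with log2 fold changes of -0.14 and 0.15. Rars, an arginyl-tRNA synthetase gene, had -0.20 in exon 2 and -0.56 (SE 0.22) at the end of its neighbour Wwc1. That Wwc1 end had 83.8, 56.7 and 65.1 CPM in CSE-KO and 112, 99.0 and 97.4 in WT, lower without overlap (edgeR adjusted p = 0.637). Acin1, an RNA splicing factor gene, had 0.06 and 0.08 in exons 1 and 2 of different transcripts. None of these passed.

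Among 40 endothelial transcription factors, 9 had a member peak, all tested, and none passed. The median log2 fold change was -0.23, and 5 of 9 lay below 0. Nr2f2 (above), Foxc1 and Id1 had an unadjusted p under 0.05, all lower in CSE-KO (3 of 9, where 4.07% of all tested peaks were lower at that p). In either direction, where all tested peaks had 7.08%, the surface and signalling genes below had 2 of 14 at that p, the immediate early genes 1 of 21, the cysteine and sulfide genes 0 of 6 and the histone acetylation genes 1 of 5. The TTS peak of Foxc1, a forkhead factor gene of vascular development, had 181, 197 and 163 CPM in CSE-KO and 224, 198 and 249 in WT, barely apart at the nearest libraries (-0.33, SE 0.15). The TTS peak of Id1, an inhibitor of basic helix-loop-helix factors, had 37.1, 73.1 and 50.3 CPM in CSE-KO and 69.6, 112 and 63.8 in WT, with overlap (-0.59, SE 0.28). Etv6, an ETS repressor gene, was at -0.23 in its 5' UTR with overlap, while Ets2 and Mef2c were at 0.62 each with overlap.

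Of 57 genes for endothelial surface and signalling proteins, 14 had a member peak, all tested, and none passed (median 0.13, 5 below 0). Kdr, the main VEGF receptor gene, had a 3' UTR peak with 63.9, 38.8 and 51.8 CPM in CSE-KO and 77.2, 85.8 and 65.5 in WT. CSE-KO was lower without overlap (-0.51, SE 0.26, edgeR adjusted p = 0.723), the one peak of this list to be so. Of the 10 peaks nearest to Kdr, this is the sole member. Higher without overlap were Mmrn1 (1.06, above), the 5' UTR peak of the BMP receptor gene Bmpr2 (0.51, SE 0.28) and a peak at the end of Ptprr nearest to the phosphatase gene Ptprb (0.24, SE 0.28), none of which passed. Of all tested peaks, 6.90% were lower and 6.09% higher in CSE-KO without overlap. The exon 1 peak of Clec14a, an endothelial lectin gene, had 136, 65.7 and 160 CPM in CSE-KO and 83.3, 89.1 and 89.0 in WT. CSE-KO replicate 2 was below all WT libraries and the other CSE-KO libraries above them (0.48, SE 0.23). Cd93, another lectin-like receptor gene, was at 0.16, and Jag1, a Notch ligand gene, at -0.09, both with overlap.

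Immediate early genes, which respond within minutes to stimuli and to cell isolation, had 21 member peaks at 20 of 53 genes, all tested. None passed, the median was 0.12, and 7 lay below 0. Jun, an AP-1 subunit gene, had 238, 207 and 203 CPM in CSE-KO and 192, 152 and 237 in WT in its 5' UTR, and Dusp1, a MAP kinase phosphatase gene, 239, 196 and 237 in CSE-KO and 189, 231 and 185 in WT in exon 4. The groups overlapped at both. Without overlap, Plk3 (0.70) and Btg1 (0.25) were higher in CSE-KO, and the Hsf2bp end nearest to Sik1 (-0.46) was lower. Such separation held for 6.09% (higher) and 6.90% (lower) of all tested peaks.

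Of 44 genes of cysteine, sulfide and amino acid stress, 7 had a member peak, and of the 6 tested none passed (median 0.06, 2 below 0). Slc7a11, the cystine importer gene, had 19.0, 29.9 and 34.0 CPM in CSE-KO and 36.3, 23.1 and 15.1 in WT. Slc38a1, a glutamine transporter gene, had 7.78, 20.9 and 29.6 CPM in CSE-KO and 10.6, 36.3 and 33.6 in WT. Both varied more within than between groups. Keap1, which encodes the sensor that restrains NRF2, was at -0.02, and Ddit4, a stress-induced inhibitor of mTORC1, at 0.04.

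Histone acetylation and acetyl-CoA genes numbered 44, with 5 member peaks, all tested, and none passed (median 0.19, 2 below 0). Brd2, a reader of acetylated histones, had 271, 234 and 260 CPM in CSE-KO and 313, 353 and 309 in WT in its 5' UTR. Every CSE-KO library was lower (-0.33, SE 0.14, edgeR adjusted p = 0.637). Ep300, the acetyltransferase p300 gene, was at -0.18, Dlat, a pyruvate dehydrogenase subunit gene, at 0.19, and the H3K9 acetyltransferase gene Kat2a at 0.39 (SE 0.50), all with overlap.

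A middle range of distance to the start was looked at after the values were seen. Between 1 and 5 kb from a start, 20 of 124 tested members (16.1%) had an unadjusted p under 0.05, 6 higher and 14 lower in CSE-KO. Among the table's other peaks at that distance it was 84 of 1050. Members nearer than 1 kb had 6.07% and those beyond 5 kb 6.37%. None of the 20 passed the adjustment. With 1 library left out, the share was 8.73% to 13.7% in members and 6.35% to 8.49% in other peaks. It was 8.73% and 6.35% without CSE-KO replicate 1, and 11.1% and 8.49% without WT replicate 3. With the DESeq2 Wald test it was 8.06% and 4.48%. The excess over other peaks was smaller in each of these settings.

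The 20 peaks lie in several classes. Besides Arl4c, Nr2f2, Serpinh1, Sox4, Foxc1, Id1 and the Wwc1 end, those lower in CSE-KO include S100a6, a calcium-binding protein gene, with 210, 204 and 228 CPM in CSE-KO and 288, 320 and 254 in WT in a later exon. Ext1, a heparan sulfate polymerase gene, had 246, 230 and 242 CPM in CSE-KO and 280, 300 and 296 in WT in exon 1. Both were lower in CSE-KO without overlap, at -0.41 (SE 0.14) and -0.28 (SE 0.14). The end of Ccl20, a chemokine gene, had 6.91, 13.4 and 2.96 CPM in CSE-KO and 16.7, 23.1 and 30.2 in WT (-1.58, SE 0.55). That peak met the count filter through WT alone, so its separation was partly set in advance. Those higher in CSE-KO include Lefty1 (0.98), Tor4a (1.08), the peak in the 3' UTR of Soga1 (1.04), Clec14a (0.48) and the growth factor gene Tgfb3 (0.55).

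Beyond 5 kb, the 204 tested members had a median log2 fold change of 0.13, against 0.03 for 6973 other peaks at that distance. This range, too, was looked at after the values were seen. The 66 tested later exon peaks beyond 5 kb had a median of 0.20 and class levels of 49.4, 51.5 and 53.2 CPM per kb in CSE-KO and 44.4, 47.9 and 44.2 in WT. The CSE-KO libraries were all higher here. The count filter left out 17 of the 83 such peaks. Prcc exon 6, and the Cdc25a end among the gene ends below, met it through CSE-KO alone. Higher CSE-KO levels beyond 5 kb may therefore be partly set in advance. CSE-KO libraries were also deeper, at 679938 to 1173016 counts against 313610 to 676056 in WT. The part of depth in these levels was not tested. The 133 gene-end peaks beyond 5 kb had 53.3, 50.3 and 50.8 CPM per kb in CSE-KO and 50.2, 49.7 and 49.3 in WT, where the lowest CSE-KO library barely exceeded the highest WT library (median log2 fold change 0.11). Taken apart, TTS peaks (50.7 to 53.0 in CSE-KO and 48.5 to 52.0 in WT) and 3' UTR peaks (49.2 to 54.2 in CSE-KO and 44.8 to 51.0 in WT, median log2 fold change 0.03) both overlapped at that distance.

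**Figure D5:**
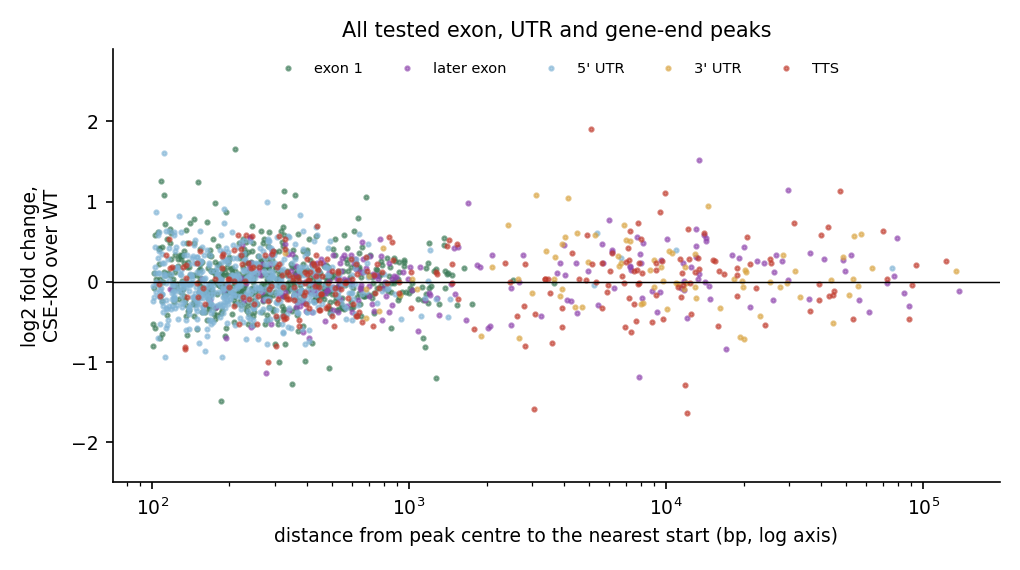
Log2 fold change, CSE-KO over WT (y axis), of the 1646 tested members against the distance of the peak's centre from the nearest transcription start (x axis, bp, log axis), coloured by class. Points scatter on both sides of 0 at all distances, with a median of -0.02 under 1 kb and 0.13 beyond 5 kb.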

How the data were processed

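A table of peaks was deposited, and it gives the raw number of reads (counts) per peak in each library. Software named in the submitters' processing notes comprises DESeq2 1.36.0, featureCounts, Picard 3.1.1, STAR 2.7.11a and Trimmomatic 0.39, and no peak caller. The notes name mm39, but 1726 of 1727 members whose transcript matched RefSeq lie within 1 kb of that gene on GRCm38.p6, so coordinates are given as GRCm38. The deposited distance to the nearest start placed the peaks, gene names are those of that start, and host genes come from the annotated transcript.

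The counts as deposited were fitted with edgeR 4.0.16 (R 4.3.3) over all peaks. filterByExpr used a minimum count of 10, factors were TMM, and glmQLFit and glmQLFTest gave two-sided tests. SEs come from the F statistic, and the step was tested on simulated data. CPM follow TMM. Counting precision follows the depth, and WT replicate 2 limits it most. No library repeated another (chi-square of 1.85 to 2.14 per degree of freedom). Named peaks were the called ones, per class the 3 highest and the 3 with the smallest p, up to 4 per list, and the 3 genes with most members. Other named peaks were chosen after their values were seen. Members and lists were chosen with earlier results of these data known. Alternatives are given in the closing section.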

Additional observations from a re-analysis of the deposited data

How the results depend on the processing

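The Prcc exon 1 call held in every alternative (log2 fold change 1.02 to 1.12), and it was the sole member called in each. Calls over all peaks numbered 14, against 7 with DESeq2, 8 with a mean count of 50 or more, 12 without a filter, and 6 to 13 with 1 library left out (6 without CSE-KO replicate 1, 8 without CSE-KO 3 and 7 without WT 3). Correlations of same-numbered deviations were weak (0.0651, 0.0141 and 0.00513, against -0.0358 to 0.0189 for other pairs), which does not exclude pairing by replicate number. A replicate block gave 15 calls, 1 of them a member. The later exon median was 0.029, between -0.005 (without WT 1) and 0.038 with 1 library left out, and 0.126 without peaks within 1 kb of a start. Exon 1 over gene ends was 1.02 per kb and 1.37 per peak. In the run of 7 peaks at Prcc all values stayed above 0 (lowest 0.41, without WT 3), and 5 to 7 had an unadjusted p under 0.05 with 1 library left out, 6 with DESeq2 or the replicate block, and 3 of the 3 left with a mean count of 50. Leaving out libraries here was added after seeing the data, as was leaving out libraries at 1 to 5 kb (11 to 17 peaks under an unadjusted p of 0.05).

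Of 583 values of the 50 named peaks, 27 turned sign and none changed its side of the threshold. Pcbp1 was 0.01 by library size and 0.03 with a mean count of 50, and Keap1 0.00 and 0.02. With 1 library left out, Pcbp1 lay between -0.08 and 0.11, Keap1 -0.28 and 0.09, Dlat -0.01 and 0.34, Slc7a11 -0.22 and 0.56, Mir7672 -0.19 and 0.07, Phf2 (TTS) -0.01 and 0.34, Acin1 exon 1 -0.03 and 0.15, Acin1 exon 2 -0.01 and 0.25, Jag1 -0.18 and 0.01, Wwtr1 -0.05 and 0.09, Robo4 -0.02 and 0.24, Ppp1r15a -0.24 and 0.05, and Ddit4 -0.01 and 0.11. The causes were not tested. With a median SE of 0.282, small changes at single members were not detectable at this depth.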
